A study of Mus musculus with 9 samples.

Results

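The genes of mitochondrial and peroxisomal fatty acid oxidation were followed on 9 Affymetrix arrays of liver RNA from KKAy mice, which become obese and diabetic. The members are a list of 32 named genes, of which 31 had at least 1 probe set annotated to that gene alone. They took 55 of the 45037 probe sets tested and 31 of the 18194 genes represented. Acsl1, which links fatty acids to coenzyme A, had no such probe set, so its signal was not analysed here. Where a gene had several probe sets, the one with the highest mean over the 9 arrays stood for it. Others are given beside it for some genes only.

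The 3 groups had 3 arrays each. All mice were 8 weeks old KKAy mice, per the labels, and 34% of the chow was fat. For BI replicate 2 the growth protocol describes the housing of rats and no such chow, and the array was kept in its labelled group, mouse. The untreated group has its treatment given as none, while the protocol describes controls injected with culture medium (DMEM) alone, so whether the untreated mice were injected is not known. The insulin group received 100 µL of medium with 40 µg/mL insulin into the peritoneum. The BI group received the same volume and the same total insulin, of which 11% was in a form modified in place by biomineralization, so a difference between BI and insulin concerns that fraction and not pure biomineralized insulin. The sources used here do not say whether an array holds RNA of 1 animal or of a pool, nor how long after injection or feeding the liver was taken. P-values therefore describe the spread among these arrays, and that spread may be technical.

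Fatty acid oxidation begins when a fatty acid is joined to coenzyme A. The carnitine shuttle carries the activated chain into mitochondria, where a dehydrogenase, a hydratase, a hydroxyacyl dehydrogenase and a thiolase shorten it cycle by cycle. Peroxisomes run a parallel set of enzymes on very long and branched chains, and auxiliary isomerases and reductases handle double bonds. In liver the nuclear receptor PPARA, which is activated by fatty acids and binds DNA with its partner RXR at a repeat of AGGTCA half-sites, drives most of these genes in fasting, while insulin restrains the pathway in the fed state.

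Liver identity was clear from the 8 measured hepatocyte markers of a list of 10, such as albumin (Alb, 15.15 to 15.45) and Apoa1 (15.34 to 15.62), which exceeded the median signal of every array. Array medians lay between 6.11 and 6.30 (log2 signal). All 31 chosen probe sets of the members were above the array median on every array. Signals of different probe sets are not compared with each other, because each probe set has its own response.

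The consensus of the PPARA and RXR binding element, a direct repeat spaced by 1 base (AGGTCA, any base, AGGTCA, read on both strands), was searched for in the RefSeq promoter windows of GRCm38.p6, which run from 250 bases before to 50 bases after a start site. All 32 listed members were looked up, and Acaa2, Crat, Decr1 and Hsd17b4 had no window. The 28 members that had a window, Acsl1 among them, had 31 windows. With up to 2 mismatches in the 12 fixed letters it was found in 4 of these 31 windows, of 4 members, and in 3.86% of all 32841 windows. With up to 1 mismatch it was found in 1 of the 31, that of Fabp1, and in 0.554% of all windows. The 4 sequences are shown because PPARA is the receptor that ties the members together. They are written 5′ to 3′ on the strand of the gene, with the match in capitals. For Fabp1, Etfa and Creb3l3 they are the 250 bases before the start site, at chr6:71199629-71199878 (plus strand), chr9:55512244-55512493 (minus strand) and chr10:81092592-81092841 (minus strand). For Slc25a20, whose match begins 6 bases after the start site, in the transcribed part, only the match and its flanks are given (chr9:108662134-108662162, plus strand).
Fabp1: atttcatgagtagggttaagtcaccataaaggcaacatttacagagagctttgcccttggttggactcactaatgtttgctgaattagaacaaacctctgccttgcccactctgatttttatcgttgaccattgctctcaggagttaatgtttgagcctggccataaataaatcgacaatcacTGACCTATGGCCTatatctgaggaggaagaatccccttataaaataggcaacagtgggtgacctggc
Etfa: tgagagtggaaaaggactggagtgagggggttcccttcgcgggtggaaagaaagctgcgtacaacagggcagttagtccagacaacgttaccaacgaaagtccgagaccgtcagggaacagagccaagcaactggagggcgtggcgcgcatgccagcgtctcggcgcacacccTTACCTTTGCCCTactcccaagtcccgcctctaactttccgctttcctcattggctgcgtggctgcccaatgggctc
Slc25a20: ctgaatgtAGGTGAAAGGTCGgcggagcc
Creb3l3: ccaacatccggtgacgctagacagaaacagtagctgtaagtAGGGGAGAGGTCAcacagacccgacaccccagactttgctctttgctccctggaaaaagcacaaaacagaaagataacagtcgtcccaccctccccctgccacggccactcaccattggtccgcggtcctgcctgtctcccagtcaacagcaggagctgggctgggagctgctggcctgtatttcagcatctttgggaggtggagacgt
The match in Fabp1 begins 67 bases before the start site and has 1 mismatch, and those in Etfa (77 bases before) and Creb3l3 (209 bases before) have 2, as has that in Slc25a20. In Fabp1 and Etfa the element reads on the opposite strand, as AGGCCATAGGTCA and AGGGCAAAGGTAA. A match is a likeness of letters and not evidence of binding, and windows without one say nothing about elements elsewhere in a gene.

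No member passed the threshold in any of the 3 comparisons. Changes are log2 differences ± SE from one limma fit of the 9 arrays, called at a Benjamini-Hochberg adjusted p under 0.05 over 45037 probe sets. With BI against untreated, 0 of 31 members were called (smallest adjusted p 0.999) where 0.0111% of probe sets were. With insulin against untreated, and with BI against insulin, 0 of 31 members and 0% of probe sets were called. Without adjustment, too, no member had a p under 0.05 in the 3 comparisons (limma, smallest 0.118, 0.0727 and 0.0898 in that order), while 3.90%, 3.87% and 3.44% of all genes did. Among the 6451 genes with a mean signal at or above that of the lowest member, only 1.1%, 0.667% and 0.713% did. In the F test over the 3 groups, limma called 0 of 31 members and 0% of probe sets, and 0 members had an unadjusted p under 0.05 (smallest 0.129).

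The intervals show how large a change these data leave room for under this fit. The median half-width of a member's 95% interval was 0.401, with a range of 0.323 to 0.769. The whole interval lay within a 2-fold change either way for 29 of 31 members with BI, for 29 with insulin and for 31 in BI against insulin. It lay within 1.5-fold for 20, 24 and 24 members. The intervals that reached past 2-fold were those of Cpt1a (up to +1.19) and Ehhadh (up to +1.13) with BI, and of Cpt1a (up to +1.04) and Decr2 (down to -1.02) with insulin. The pooled SD of a member within groups had a median of 0.146, against 0.378 over all genes and 0.175 over the 6451 genes with a mean signal at or above that of the lowest member. Without a variance trend, the fit draws each variance toward a value shared by all probe sets. Intervals and p-values of members with a small SD thus reflect other probe sets too, as for Etfa (SD 0.042, SE 0.14 with BI against untreated).

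**Figure D1:**
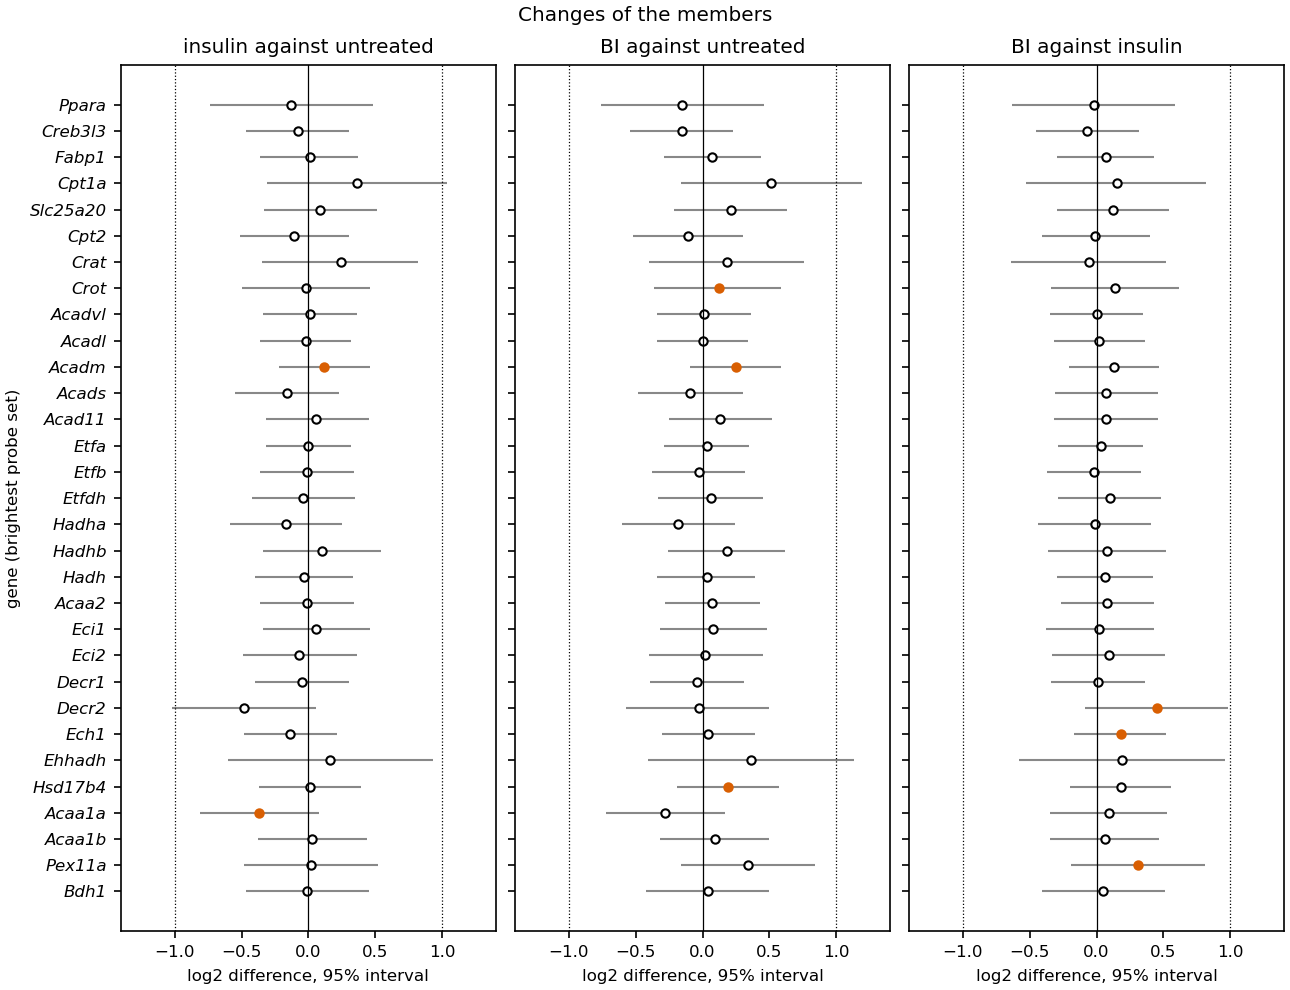
Log2 differences of the 31 members (points) with 95% intervals from the limma fit (lines) in each of the 3 comparisons, with dotted lines at a 2-fold change; filled points mark members whose arrays did not overlap between the 2 groups. Every interval includes 0, and the widest belong to Ehhadh and Cpt1a.

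The receptor gene Ppara was at 11.89, 11.93 and 11.79 on the untreated arrays, at 12.15, 11.91 and 11.16 with insulin, and at 11.64, 11.68 and 11.84 with BI. Insulin replicate 3 held the lowest value and insulin replicate 1 the highest, so the insulin arrays spanned the other groups. The difference was -0.15 ± 0.26 with BI and -0.13 ± 0.26 with insulin. The 2 dimmer probe sets of Ppara stood at -0.24 ± 0.36 and -0.16 ± 0.18 with BI. Creb3l3, a transcription factor released from the endoplasmic reticulum membrane that acts beside PPARA in fasting, stood at -0.15 ± 0.16 with BI and -0.08 ± 0.16 with insulin. Fabp1, the fatty acid-binding protein of the liver cytosol, was at 15.59, 15.74 and 15.89 without treatment, at 15.69, 15.73 and 15.81 with insulin and at 15.70, 15.84 and 15.90 with BI. Its groups overlapped throughout (BI against untreated +0.07, 95% interval -0.29 to 0.44). Fabp1 holds the closest match to the PPARA element among the windows searched for the members.

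The carnitine shuttle held the largest difference of the list. Cpt1a, the outer membrane enzyme that malonyl-CoA inhibits and that controls entry into mitochondria, was at 12.39, 11.78 and 11.91 on the untreated arrays, at 12.76, 12.52 and 11.88 with insulin, and at 12.59, 12.28 and 12.75 with BI. Untreated replicate 1 lay above BI replicate 2, so the groups overlapped. The difference was +0.51 ± 0.29 with BI (limma unadjusted p 0.118) and +0.36 ± 0.29 with insulin. Leaving out insulin replicate 1 gave +0.18 for the latter, and leaving out insulin replicate 3 gave +0.61. The other probe sets of Cpt1a did not share it, at +0.08 ± 0.21 and -0.18 ± 0.29 with BI, and the brightest one carries the suffix _x_at, which Affymetrix gives to probe sets whose probes can also match other transcripts. Slc25a20, the carrier that exchanges acylcarnitine for carnitine across the inner membrane, stood at +0.21 ± 0.18 with BI, and Cpt2, which reforms the acyl-CoA inside, at -0.11 ± 0.17.

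The peroxisomal carnitine octanoyltransferase Crot was at 14.61, 14.65 and 14.65 on the untreated arrays and at 14.77, 14.73 and 14.76 with BI. The BI arrays lay above the untreated ones in 3 of 3 cases, by +0.12 ± 0.21 with the variance shared across genes. The insulin arrays ranged from 14.23 to 14.95 and thus spanned both groups. On its dim second probe set the BI arrays lay below the insulin arrays (means 5.22 and 6.26, -1.04 ± 1.11). Crat, the carnitine acetyltransferase of short chains, stood at +0.18 ± 0.25 with BI and +0.24 ± 0.25 with insulin.

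Among the dehydrogenases of the first step, Acadm, which acts on medium chains, stood apart in the arrays without passing the test. It was at 14.36, 14.29 and 14.38 on the untreated arrays, at 14.44, 14.48 and 14.47 with insulin and at 14.45, 14.63 and 14.70 with BI. Every array of either treated group lay above every untreated array, and the treated groups overlapped each other. The difference was +0.25 ± 0.15 with BI, a ratio of 1.19 (limma unadjusted p 0.129), and +0.12 ± 0.15 with insulin. Both differences rest on the same 3 untreated arrays.

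The other dehydrogenases had differences near 0 on their brightest probe sets. Acadl and Acadvl, for long and very long chains, stood at 0.00 ± 0.15 and +0.01 ± 0.15 with BI. Acads, for short chains, stood at -0.09 ± 0.17 and Acad11, for longer chains, at +0.13 ± 0.17. The electron transfer flavoprotein takes the electrons from the mitochondrial dehydrogenases. Its subunit Etfa, whose promoter window is shown above, ranged over 0.13 in all 9 arrays (13.79 to 13.92), with the smallest SD of the members (0.042). Etfb stood at -0.03 ± 0.15 and Etfdh, which passes the electrons on to ubiquinone, at +0.06 ± 0.17 with BI. A dim probe set of Etfdh stood at +1.82 ± 0.90 with BI, from an untreated mean of 3.91, below the array medians. There the BI arrays lay above the untreated ones.

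The later steps of the mitochondrial cycle did not differ beyond their spread on their brightest probe sets either. The 2 subunits of the trifunctional protein stood on opposite sides of 0 with BI, Hadha at -0.18 ± 0.18 and Hadhb at +0.18 ± 0.19. Untreated replicate 2 had the lowest Hadhb signal (13.42), below untreated replicates 1 and 3 (13.87 and 13.83). The second probe set of Hadhb stood at +0.07 ± 0.14 with BI. There the BI arrays (13.13, 13.08 and 13.20) lay above the untreated ones (13.07, 13.04 and 13.07), without overlap. Hadh, the hydroxyacyl dehydrogenase of shorter chains, stood at +0.03 ± 0.16 and the thiolase Acaa2 at +0.07 ± 0.15 with BI. A dim probe set of Hadh dropped to 7.93 on BI replicate 3, against 9.72 to 10.27 on the other 8 arrays, while the bright ones did not.

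Of the enzymes for unsaturated chains, Decr2, the peroxisomal dienoyl-CoA reductase, had the largest difference in BI against insulin with all 9 arrays. It was at 10.04, 9.88 and 9.51 without treatment, at 9.0, 9.61 and 9.38 with insulin, and at 9.77, 9.94 and 9.62 with BI. The BI arrays lay above the insulin arrays, with BI replicate 3 close above insulin replicate 2, while the untreated and insulin arrays overlapped. The difference was +0.45 ± 0.23 for BI against insulin (limma unadjusted p 0.0898) and -0.48 ± 0.23 for insulin against untreated (0.0727). Insulin replicate 1 held the lowest value, and without it the differences were +0.28, below the +0.35 of Pex11a, and -0.31.

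Ech1, a dienoyl-CoA isomerase, showed the same order between these groups at a smaller size, with 13.41, 13.53 and 13.48 with insulin and 13.55, 13.69 and 13.71 with BI (+0.18 ± 0.15). Its untreated arrays, at 13.61, 13.71 and 13.51, overlapped both groups. The mitochondrial reductase Decr1 stood at +0.01 ± 0.15 in BI against insulin, and the isomerases Eci1 and Eci2 at +0.02 ± 0.17 and +0.09 ± 0.18.

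In the peroxisome, Pex11a, a membrane protein that divides and multiplies peroxisomes and a known PPARA target, was at 11.44, 11.59 and 11.88 without treatment, at 11.73, 11.71 and 11.52 with insulin and at 11.84, 12.32 and 11.76 with BI. BI arrays lay above insulin arrays, and untreated replicate 3 lay within the range of BI. The difference was +0.31 ± 0.21 against insulin and +0.34 ± 0.21 against untreated, with BI replicate 2 the highest of the 9 arrays. Without BI replicate 2 these differences were +0.14 and +0.16. Its second probe set gave +0.32 ± 0.18 and +0.31 ± 0.18, and there the BI arrays lay above all arrays of either other group, with a limma unadjusted p of 0.118 and 0.129.

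Hsd17b4, the D-bifunctional protein, was at 13.89, 13.75 and 13.80 without treatment and at 14.01, 13.93 and 14.06 with BI, without overlap (+0.19 ± 0.16), while insulin (13.61, 13.99 and 13.86) overlapped both. Its second probe set stood at +0.16 ± 0.19 with BI, where the groups overlapped. In BI against insulin it stood at +0.30 ± 0.19, without overlap. Ehhadh, the L-bifunctional protein and one of the most PPARA-responsive genes of rodent liver, was at 13.23, 12.07 and 13.17 without treatment, at 12.83, 13.23 and 12.90 with insulin and at 12.96, 13.33 and 13.25 with BI. Its difference with BI (+0.36 ± 0.33) came with 1 untreated array, replicate 2, far below the other 8, and was -0.02 without it.

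The 2 peroxisomal thiolase genes are close relatives whose transcripts probe sets may not separate. Acaa1b was at 15.22, 15.47 and 15.73 without treatment, at 15.48, 15.55 and 15.48 with insulin and at 15.51, 15.58 and 15.60 with BI (+0.09 ± 0.18 with BI, groups overlapping). Acaa1a was at 10.30, 10.64 and 10.29 without treatment, at 10.07, 10.15 and 9.93 with insulin and at 10.38, 9.96 and 10.07 with BI. Its insulin arrays lay below the untreated ones (-0.37 ± 0.19, limma unadjusted p 0.0924), while its second probe set stood at +0.05 ± 0.15, and both carry the suffix _x_at. Bdh1, the mitochondrial enzyme that makes the ketone body hydroxybutyrate, stood at +0.04 ± 0.20 with BI and -0.01 ± 0.20 with insulin.

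**Figure D2:**
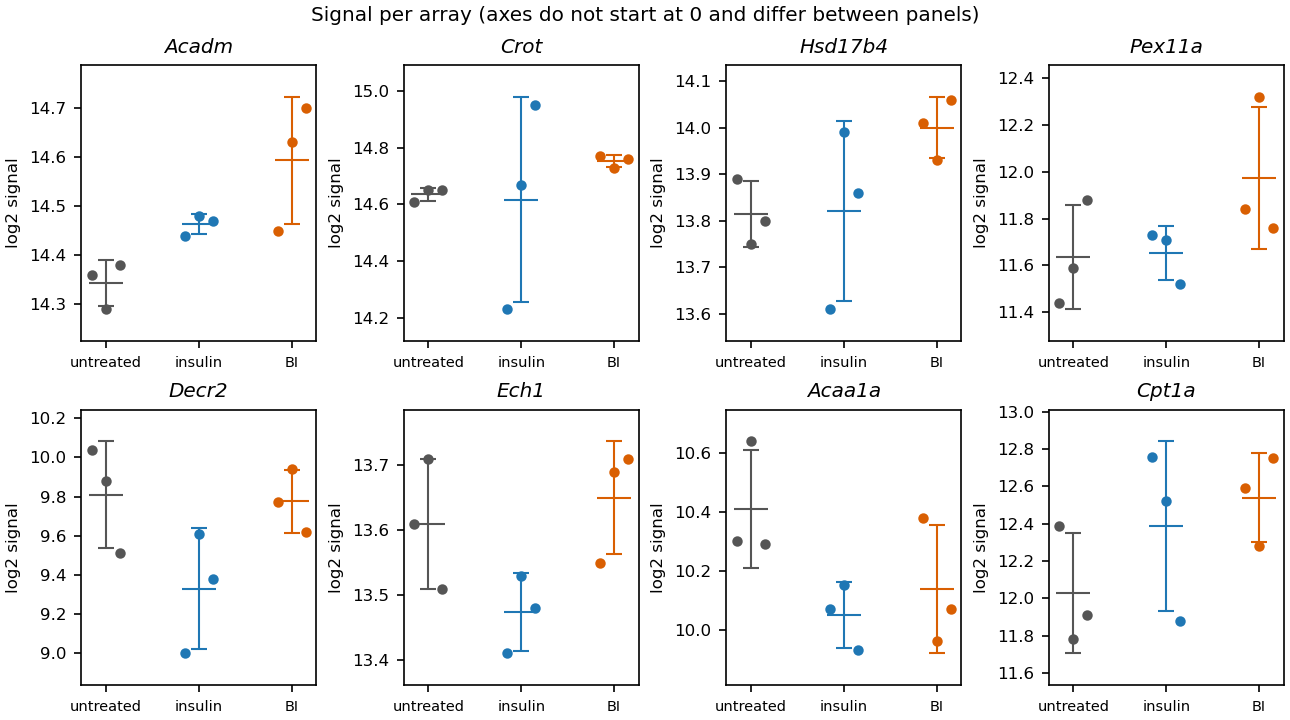
Log2 signal of the brightest probe set on each array for the 7 members whose arrays did not overlap in at least 1 comparison and for Cpt1a; points are arrays and bars are mean ± SD of 3 arrays per group. Acadm is higher on all treated arrays, and Decr2, Ech1 and Pex11a are higher with BI than with insulin, each by less than 0.5 (log2).

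Counted over the list, groups did not overlap for 3 of 31 members with BI against untreated, all higher with BI (Acadm, Crot and Hsd17b4), where 4.84% of all genes were separate in that direction, 4.52% in the other and 9.35% in either. With 2 arrays left in a group such separation is easier, and its share of all genes was 20.4% without untreated replicate 3, 19.2% without BI replicate 1, 21.2% without untreated replicate 1 and 17.2% without BI replicate 3, where 9, 9, 6 and 5 members were separate. With insulin against untreated it was 1 member higher (Acadm) and 1 lower (Acaa1a), where 5.74% and 3.48% of genes were, 9.23% in all. Without untreated replicate 3 it was 8 members, without insulin replicate 2 it was 5 and without insulin replicate 1 it was 4, where 19.9%, 17.1% and 19.6% of genes were separate. In BI against insulin 3 members were separate and higher (Decr2, Ech1 and Pex11a), where 4.20% of genes were, with 5.68% lower and 9.88% in all. Without BI replicate 1 it was 11 members, without insulin replicate 2 it was 7, and without insulin replicate 3 or BI replicate 2 it was 5, where 21.5%, 19.7%, 20.2% and 19.1% of genes were separate. The members were named here after their values were seen.

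In BI against insulin, most members lay on one side. The BI mean was above the insulin mean for 25 of 31 members (median +0.070), while it was so for 45.7% of all genes (median -0.026). All 5 enzymes for unsaturated chains, all 5 peroxisomal members and 7 of 8 dehydrogenases and electron carriers were among them, and Ppara, Creb3l3, Cpt2, Crat, Etfb and Hadha were not. Members that share regulation vary together, so 31 genes are not 31 independent observations, and no test of the list was made. Quantile normalization gave 21 of 31 (median 0.035), equal array medians gave 29 (median 0.095) and the mean over the probe sets of each gene gave 20 (median 0.030). In these settings the median over everything tested was -0.00504, 0.016 and -0.00965. The 45.7% of all genes belongs to the values as deposited and does not carry over to them. The median was 0.024 without BI replicate 3, 0.039 without insulin replicate 3 and 0.118 without BI replicate 1.

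With BI against untreated, 22 of 31 members had a higher mean (median +0.041), where 50.1% of all genes did (median 0.000), while quantile normalization gave 20 (median 0.016) and equal array medians gave 17 (median 0.012). The median over all probe sets in these 2 settings was 0.000253 and -0.0131. The median was 0.012 without untreated replicate 2, 0.013 without BI replicate 3, 0.071 without untreated replicate 3 and 0.090 without BI replicate 1. With insulin against untreated it was 13 of 31 (median -0.009) against 53.7% of genes. Quantile normalization gave 17, with a median on the other side of 0 at 0.002, and 8 were higher under equal array medians (median -0.063) and also without untreated replicate 2. These 3 comparisons share arrays in pairs and are not independent of each other.

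Per array, the mean deviation of the 31 members from their own means over the 9 arrays was 0.03, -0.07 and 0.00 for untreated replicates 1 to 3. It was -0.05, 0.04 and -0.09 with insulin and -0.02, 0.06 and 0.10 with BI. BI replicates 2 and 3 were the highest arrays and BI replicate 1 lay among the other groups, so the groups overlapped. The mean deviation of all genes was -0.06, -0.03 and 0.02 for untreated replicates 1 to 3. It was 0.01, 0.03 and 0.04 with insulin and -0.05, 0.00 and 0.05 with BI. These all-gene values were not subtracted from those of the members. On BI replicate 3, 26 of 31 members were above their own mean and 11 had their highest value, while on insulin replicate 3 it was 7 of 31 above. Of all genes, 54.6% were above their own mean on BI replicate 3 and 55.9% on insulin replicate 3. On untreated replicate 2, 11 of 31 members had their lowest value.

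**Figure D3:**
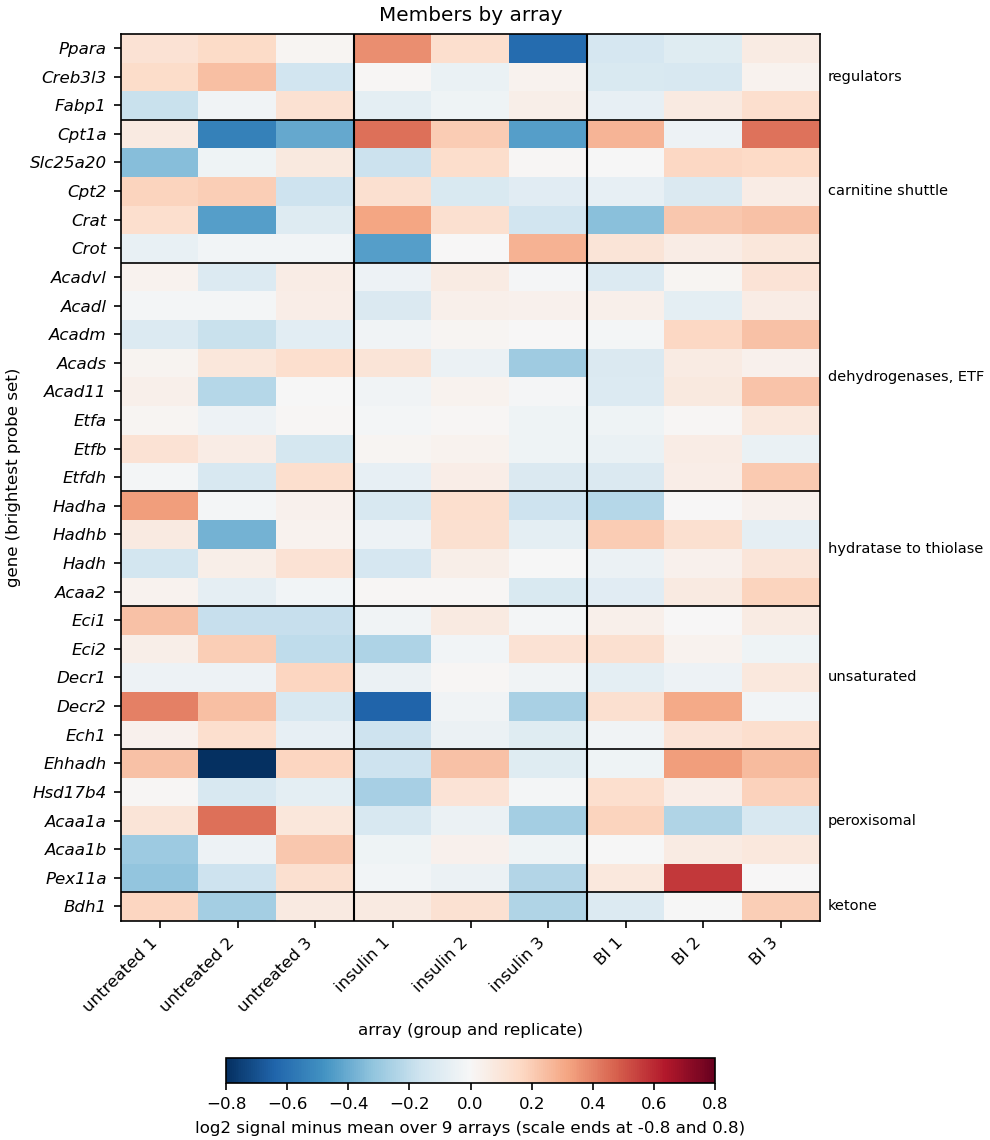
Each cell is the log2 signal of a member (row, grouped by role) on an array (column) minus the mean of that member over the 9 arrays, on a colour scale that ends at -0.8 and 0.8. Most cells are pale, the darkest is Ehhadh on untreated replicate 2, and no block of rows separates the 3 groups.

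Signals linked to RNA quality and to other cell types differed in mean between the BI and insulin arrays. Whether RNA quality or cell content itself differed was not tested. The difference between the 3' and 5' probe sets of Gapdh, which grows as RNA degrades, was 0.55, 0.54 and 0.48 with insulin and 0.39, 0.26 and 0.42 with BI, without overlap, and 0.28, 0.31 and 0.65 without treatment. Of the markers of liver endothelial cells, 0 of 8 had a higher mean with BI than with insulin (median -0.378), and 4 of the 8 were separate. Of all genes, 45.7% had a higher mean there and 5.68% were separate and lower. The summed signal of the 8, to which Clec4g (11.22 to 12.22) adds most, was 6450 to 7990 with insulin, 4620 to 6190 with BI and 4900 to 7100 without treatment. None of the 8 was at 0 on any array, but Pecam1 exceeded the array median on only 2 of 9. Their mean deviation overlapped at its edge, with insulin replicate 3 at -0.04 and BI replicate 1 at 0.00. Of 10 Kupffer cell and macrophage markers, 0 had a higher mean with BI than with insulin (median -0.280). Their summed signal was 17100 to 25000 with insulin and 14800 to 27900 with BI, where BI replicate 1 held the highest value of the 9 arrays. Their mean deviation was 0.39, -0.14 and -0.60 on BI replicates 1 to 3 and -0.01, 0.13 and 0.40 with insulin, and -0.30, 0.10 and 0.02 without treatment. Among the BI arrays replicate 1, highest in these markers, was lowest in the members, and insulin replicate 3, highest in the markers among the insulin arrays, was the lowest of all 9 in the members. Insulin replicate 2, however, was above insulin replicate 1 in the markers (0.13 and -0.01) and in the members (0.04 and -0.05). A relation between markers and members was not tested. The 8 hepatocyte markers had a median of +0.016, with 5 of 8 higher. The part of these in the direction of the members was not tested. In bulk liver, fewer cells of a type and less RNA per cell cannot be told apart.

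**Figure D4:**
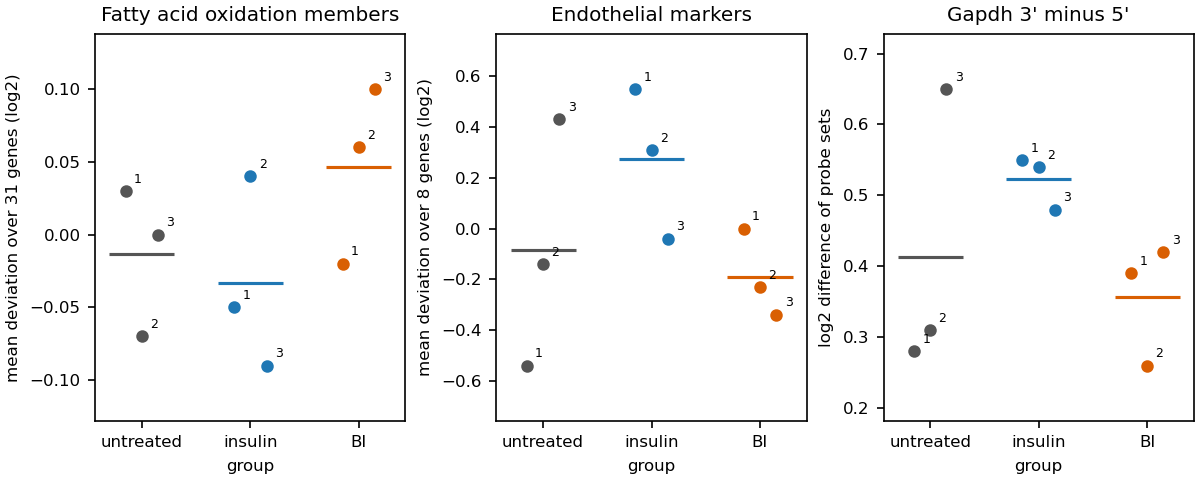
Points are arrays, numbered by replicate, with the group mean as a line, for the mean deviation of the 31 members, the mean deviation of 8 endothelial markers and the Gapdh 3' minus 5' difference (all log2). The members overlap between groups, while the Gapdh difference separates BI (0.26 to 0.42) from insulin (0.48 to 0.55).

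For 18 members with more than 1 probe set, agreement in sign was limited. Of 24 further probe sets, 16 had the sign of the chosen one with BI against untreated, 11 with insulin against untreated and 15 in BI against insulin. All probe sets of a gene shared a sign for 10, 5 and 9 of the 18 genes. Among these 24 probe sets, 14 were higher in BI against insulin (median +0.029), and 0 had an unadjusted p under 0.05 in any comparison (limma).

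The variance prior was also allowed to follow signal. With such a trend and robust fitting, limma gave an unadjusted p of 0.00934 to Acadm, 0.0398 to Cpt1a and just under 0.05 to Pex11a with BI against untreated. It gave 0.0228 to Decr2 and 0.0324 to Acaa1a with insulin against untreated, and 0.0316 to Decr2 in BI against insulin. The adjusted p of these was 0.996 with BI against untreated and 1.00 in the other comparisons, so none passed there either.

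Other genes of the pathway were read from lists of 120 genes, of which 107 were measured. In each comparison 0 of 107 passed over all probe sets. Without adjustment, 8 had a p under 0.05 with BI against untreated (7.48%, beside 3.90% of all genes), 2 with insulin and 0 in BI against insulin. The 8 were Acot1, Acot3, Aldh3a2, Hao2, Cpt1c, Acsm3, Pccb and, lower, Ppargc1a.

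Of 11 acyl-CoA thioesterases, which release free fatty acids from coenzyme A, 7 had a higher mean with BI (median +0.145) and 7 with insulin (median +0.036). Acot1, the cytosolic long-chain enzyme and a PPARA target, was at 8.76, 8.81 and 8.66 without treatment, at 8.46, 9.41 and 9.79 with insulin and at 9.86, 10.37 and 9.68 with BI. All BI arrays lay above the untreated ones, by +1.23 ± 0.36 (limma adjusted p 0.942), and 2 of 3 insulin arrays did. Acot3, a peroxisomal relative, stood at +2.07 ± 0.86 from a mean of 4.70, below the array medians.

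Of 9 omega-oxidation genes, which oxidize fatty acids from the far end, 6 had a higher mean with BI (median +0.198). Aldh3a2, the fatty aldehyde dehydrogenase, was at 9.12, 9.50 and 9.35 without treatment, at 9.54, 9.93 and 9.88 with insulin and at 10.01, 10.12 and 10.42 with BI. The 3 groups followed each other without overlap, and BI against untreated was +0.86 ± 0.20 (limma adjusted p 0.772). The differences of Acot1 and Aldh3a2 were larger than that of any member, where +0.51 for Cpt1a was the largest with BI.

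Of 18 other peroxisomal oxidation enzymes and transporters, 13 had a higher mean with BI (median +0.072), with the hydroxy acid oxidase Hao2 at +1.28 ± 0.36 from a mean of 4.72, below the array medians. Peroxisome assembly genes (7 of 12 higher, median +0.033) and ketone body genes (2 of 4, median -0.006) were close to the median of all genes. Of 17 other mitochondrial acyl-CoA enzymes, 10 had a higher mean with BI (median +0.040), with Pccb, a subunit of propionyl-CoA carboxylase, at +0.59 ± 0.20. Against insulin it was 15 of 17 (median +0.116), and on insulin replicate 3 the mean deviation of these genes was -0.29.

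Among 16 genes of fatty acid uptake, other activation and carnitine supply, 7 had a higher mean with BI (median -0.064). Acsm3, a medium-chain acyl-CoA synthetase, stood at +0.63 ± 0.25. Cpt1c, a relative of Cpt1a found mainly in neurons, stood at +1.95 ± 0.62 with BI and +1.86 ± 0.62 with insulin from a mean of 3.75, below the array medians. Of 20 partners and other targets of PPARA, 9 had a higher mean with BI (median -0.031). The coactivator Ppargc1a was at 8.65, 8.70 and 8.80 without treatment, at 7.97, 8.47 and 8.00 with insulin and at 8.12, 8.00 and 8.32 with BI. Every treated array lay below every untreated one (-0.57 ± 0.20 in either comparison, limma adjusted p 0.999 with BI and 1.00 with insulin).

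For comparison, the opposing pathway of lipogenesis had a higher mean with BI against untreated in 5 of 22 genes (median -0.272) and with insulin in 5 of 22 (median -0.156), where 0 of 22 passed in either. Oxidative phosphorylation, which uses the electrons that fatty acid oxidation yields, had 20 of 54 higher in both (median -0.013 and -0.012). Whether the members differed from these lists was not tested.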

How the data were processed

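The authors deposited log2 signals per probe set for 9 arrays, made per the labels' protocols from liver RNA (TRIzol, RNeasy) with a 3' IVT biotin kit. Software and normalization are not given in the sources used here. Each array had the same trimmed mean after conversion from log2 (500.004), so values were used as deposited. Of 45101 probe sets, 64 controls were left out. GEO's platform annotation, which can be old, gave 34945 probe sets 1 gene, 932 several and 9160 none here, and 34741 matched a current RefSeq gene ID. All 9 arrays entered one limma 3.58.1 fit (R 4.3.3) with group as the only factor and no variance trend, which left 6 residual degrees of freedom and was tested on simulated data. Precision is limited by the number of arrays.

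The members and lists were chosen with earlier results of these data known. All members may be named. Values on every array are given for Ppara, Cpt1a, Acaa1a, Acaa1b and for further members chosen after their values were seen. Not all of these stood out, as the groups of Fabp1 overlapped throughout. Other pathway genes are named at an unadjusted limma p under 0.05. Promoter windows came from RefSeq, GRCm38.p6.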

Additional observations from a re-analysis of the deposited data

How the results depend on the processing

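In every setting tried 0 of 31 members were called in each comparison. The settings were a filter that left out probe sets with a mean under 6.04, equal array medians, quantile normalization, a variance trend with robust fitting, only the groups compared, array weights, a floor at 6, gene means over probe sets, probe sets without the suffixes _x_at or _s_at preferred, the replicate block and leaving out each array. Of all probe sets with BI against untreated, 5 were called, against 1 with the filter, 2 genes with gene means, 0 with only the groups compared, with the replicate block or with the floor, and 0 to 2 with an array left out. In BI against insulin, 1 was called with the filter or with gene means, and 0 to 1 with an array left out. The F test called 1 with the filter, 3 genes with gene means and 0 to 1 with an array left out, and 0 otherwise. Fewer probe sets are tested with the filter and with gene means. For the other changes in these counts the cause was not tested.

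Shares of all genes without overlap are in brackets. Members without overlap with BI against untreated numbered 1 with quantile normalization (9.52%), 5 with gene means (9.66%) and 3 to 9 with an array left out (9.35% to 21.2%). With insulin they numbered 1 with gene means (9.44%) and 2 to 8 with an array left out (9.23% to 21.2%). In BI against insulin they numbered 6 with gene means (10.3%) and 3 to 11 with an array left out (9.88% to 21.5%). Members with a higher mean with insulin numbered 8 with equal array medians and 8 to 18 with an array left out. Member medians moved by less than the spread between arrays. The medians against untreated (0.041 with BI, -0.009 with insulin) were themselves smaller than that spread. Such a median could reach 0 or turn within that limit, so the limit cannot show that it was stable. With an array left out these medians ran from 0.012 to 0.09 with BI and from -0.05 to 0.019 with insulin. In BI against insulin the median (0.07) ran from 0.024 to 0.118. No interval excluded 0 in the fit reported, so signs that turned for single members are not counted as reversals. Same-numbered arrays did not deviate together (r from -0.159 to 0.147 over the 9 pairs), and the labels do not say whether the numbers pair arrays. No member was called without the replicate block, so it had no member's call to take away. Low signals such as those of Acot3 and Cpt1c have no background measure, which limits what they show.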
